A study of Mus musculus with 12 samples.

Results

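The genes described here are 10 components of the circadian clock: the activators Arntl (also called Bmal1) and Clock, the repressors Per1, Per2, Per3, Cry1 and Cry2, the nuclear receptors Nr1d1 and Nr1d2 (the REV-ERBs), and the output factor Dbp. They were taken by symbol from the 53707 genes of the deposited table, and all 10 were found and were among the 21061 genes with enough counts to be tested. The retinas came from wild-type C57BL/6J mice at postnatal day 28 and were freed of the retinal pigment epithelium. They were held as explants for 48 hours in a neuronal medium with either 5 mM or 25 mM glucose, and carried no transgene or deletion. The methods of the authors then describe 1 hour in Krebs' Ringer medium, but add that retinas for RNA-seq were processed at once. Whether these retinas went through that hour is not clear from that text. The dissections were timed to 2 hours after lights on, and the medium of both groups held the B27 and N2 supplements. Each concentration had 3 biological replicates, each with 2 technical replicates that also differed in batch, which gave 12 total RNA libraries. What a technical replicate was, and whether biological replicates were separate animals, is not given in the labels, so p-values measure only the spread between these samples.

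The mammalian clock is a feedback loop of transcription. ARNTL and CLOCK bind E-boxes as a dimer and drive the Per and Cry genes, whose proteins enter the nucleus and repress that dimer, and they also drive Nr1d1, Nr1d2 and Dbp. NR1D1 and NR1D2 repress Arntl and Clock through elements shared with the activating ROR receptors, and DBP acts on D-boxes in genes such as Per3. The mammalian retina holds a clock of its own, which paces dopamine release, disc shedding and visual sensitivity.

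RefSeq promoter windows on GRCm38.p6, from 250 bases before to 50 bases after a start site, were at hand for 9 of the 10 genes, in 13 windows. The window of Per2 was not analysed here. An E-box (CACGTG) stood in 2 of the 13 windows, those of Per1 and Cry1, and in 7.15% of the 32851 windows of all genes. The E-box variant CACGTT, read on both strands like the others, stood in 3 windows (Cry1, Cry2 and Nr1d1) and in 4.68% of all windows. The D-box TTATGTAA stood in the window of Per3 alone, with 2 copies, and in 0.938% of all windows. The ROR core motif AGGTCA stood in 4 windows (Arntl, Clock, Per1 and Nr1d2) and in 16.3% of all, and the cAMP response element TGACGTCA stood in 0 of the 13 and in 1.79% of all. No 2 matches overlapped in these windows. The following 3 windows are shown because they carry the E-box or D-box letters through which the loop is known to act, which are in capitals.
Per1, chr11:69098699-69098998, plus strand, with the E-box from base -166 of the start site: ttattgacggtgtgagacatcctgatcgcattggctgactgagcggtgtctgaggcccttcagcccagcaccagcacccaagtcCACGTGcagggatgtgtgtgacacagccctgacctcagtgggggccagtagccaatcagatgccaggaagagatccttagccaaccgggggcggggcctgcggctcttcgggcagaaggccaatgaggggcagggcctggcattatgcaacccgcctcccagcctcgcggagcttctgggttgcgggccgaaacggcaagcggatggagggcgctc
Cry1, chr10:85185005-85185304, minus strand, with the E-box variant, as AACGTG, from base -79 and the E-box from base -60: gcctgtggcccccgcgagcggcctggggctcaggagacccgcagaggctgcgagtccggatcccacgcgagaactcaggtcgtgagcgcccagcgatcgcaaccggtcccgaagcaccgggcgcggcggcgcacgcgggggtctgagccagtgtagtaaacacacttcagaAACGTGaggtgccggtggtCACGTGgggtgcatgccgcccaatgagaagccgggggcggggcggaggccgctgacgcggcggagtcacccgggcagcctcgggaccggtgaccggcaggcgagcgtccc
Per3, chr4:151044616-151044915, minus strand, with D-boxes from bases -205 and -158: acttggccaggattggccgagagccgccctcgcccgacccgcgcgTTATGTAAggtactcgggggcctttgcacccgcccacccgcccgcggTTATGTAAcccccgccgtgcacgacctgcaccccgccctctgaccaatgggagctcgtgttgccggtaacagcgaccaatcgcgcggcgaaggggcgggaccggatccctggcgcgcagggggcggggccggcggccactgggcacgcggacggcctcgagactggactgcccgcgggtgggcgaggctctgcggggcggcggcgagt
These letters are a description of the windows and are no evidence that a factor was bound in the explants.

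To find whether glucose supply altered these genes, the technical replicates of each biological replicate were summed and 25 mM was compared with 5 mM. None of the 10 genes was called at a false discovery rate (FDR) under 0.05 by edgeR (quasi-likelihood, Benjamini-Hochberg adjusted), and their FDRs ran from 0.116 to 0.554. Over all genes, 1.98% were called at that threshold, and 0.0% at an FDR under 0.01 with a fold over 2. The median log2 fold change of the 10 genes, as 25 mM minus 5 mM, was -0.35, beside -0.01 over all genes tested. The 4 genes above 0 were Nr1d2, Per3, Arntl and Clock, and the 6 below 0 were Nr1d1, Per1, Per2, Dbp, Cry2 and Cry1. Unadjusted p-values under 0.05 came from 3 of the 10 genes, Nr1d1, Per2 and Dbp, which were all lower at 25 mM, beside 28.7% of all genes in either direction and 15.5% in the lower direction. The replicates of both concentrations did not overlap for 4 of the 10 genes, beside 31.8% of all genes. Of these, Arntl and Per3 were higher at 25 mM, beside 16.0% of all genes, and Per2 and Dbp were lower, beside 15.8%. Both of these shares of the 10 genes were close to the background of the table. An exact permutation test of 3 against 3 cannot give a two-sided p below 0.1, which these 4 genes reached.

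**Figure D1:**
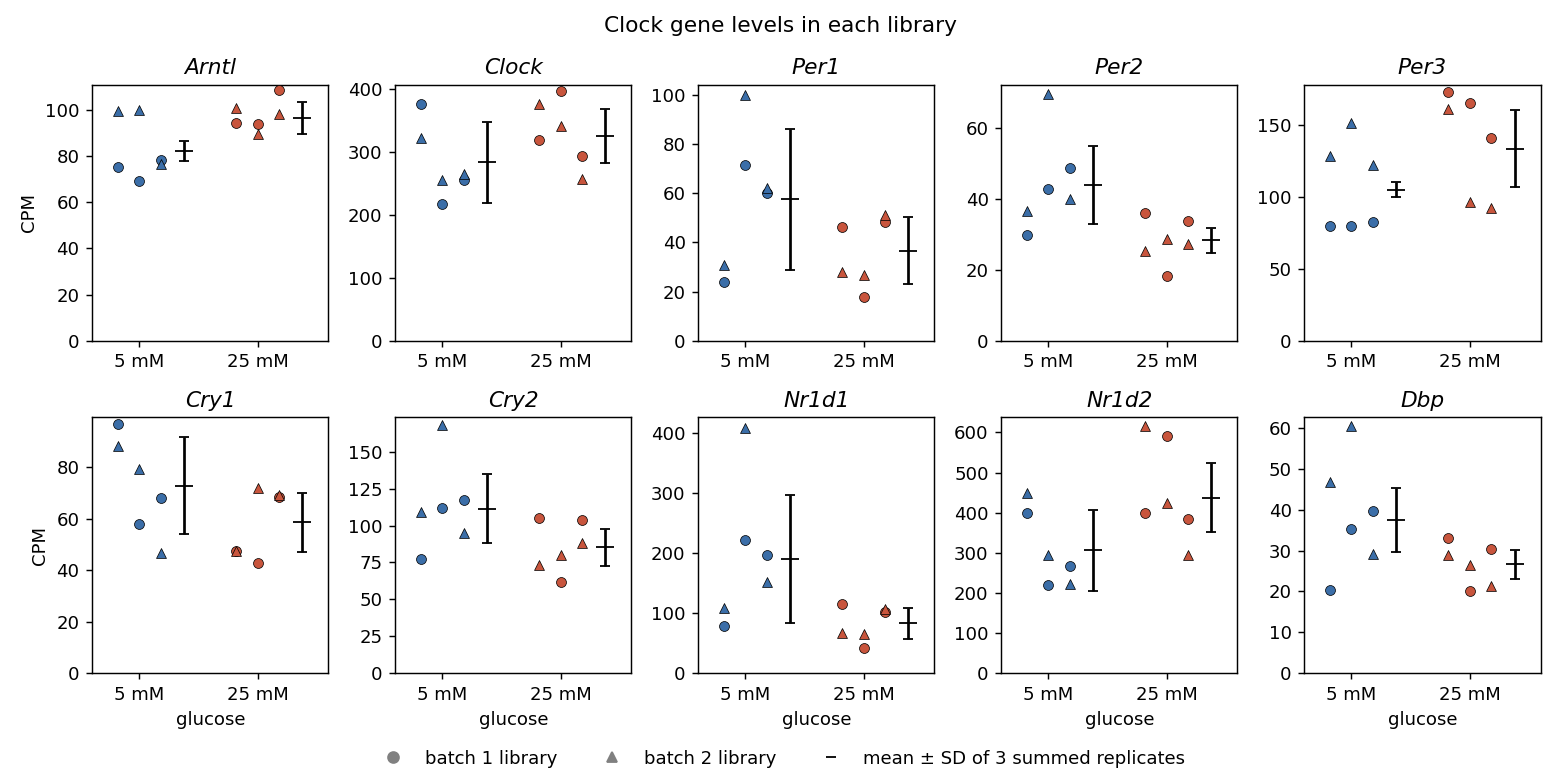
Expression of the 10 clock genes in CPM (counts scaled to the library total with TMM factors, y axis from 0) in the 12 libraries, by glucose concentration (x axis). Circles are batch 1 and triangles batch 2, libraries of replicates 1, 2 and 3 stand from left to right, and black marks are the mean ± SD of the 3 summed replicates; Nr1d1 at 5 mM reached from 78.6 to 408 CPM, and Per3 at 5 mM split by batch.

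The retinal identity of the explants and 1 replicate frame these values. Summed rod markers lay between 2714 and 5166 CPM at 5 mM and between 5893 and 8094 CPM at 25 mM, with 5 of 8 called higher. Summed vascular endothelial markers lay between 900 and 1679 CPM at 5 mM and between 397 and 756 CPM at 25 mM, with 0 of 6 called and 5 of 6 at an unadjusted p under 0.05. Microglial markers lay between 59.7 and 119.7 CPM at 5 mM and between 33.5 and 66.0 CPM at 25 mM. Müller glia, bipolar, cone and ganglion cell markers overlapped between the concentrations. Summed amacrine markers were at 184 to 216 against 93.8 to 171 CPM, but 3 of these genes lay above 0 and 3 below, with a median log2 fold change of 0.04. Pigment epithelium markers stayed at 4.96 to 7.42 CPM in all replicates, with Rpe65 at or near 0. Replicate 1 at 5 mM had the lowest rod, endothelial and microglial sums of its group (2714, 900 and 59.7 CPM). Clock genes are expressed in many retinal cell types, so fewer cells of a type and less RNA per cell cannot be told apart, and the part of cell composition in the values below was not tested. All explants were collected at 1 time of culture, so a change in level and a shift in the timing of a rhythm cannot be told apart either. Total counts ran from 14815285 to 36692484 per library and from 37944826 to 60098862 per summed replicate, and the lowest count of a clock gene in a library was 239.

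Per unit of transcript length, Nr1d2 was the most abundant of the 10 genes at both concentrations. Its level in TPM (transcript counts per base of transcript, scaled to the library) was 169.8 ± 49.8 at 5 mM and 266 ± 58.4 at 25 mM (SD, n = 3 for these and all following levels). At 5 mM it was followed by Nr1d1 (149 ± 89.8 TPM), whose spread reached across the levels of Nr1d2 and of the genes below it. Clock (69.2 ± 12.9), Arntl (61.3 ± 3.41), Dbp (59.5 ± 16.0), Cry2 (59.4 ± 15.0) and Cry1 (53.1 ± 7.92 TPM) came next. Neighbours in this order differed by less than the larger of their SDs, while Clock and Cry1 differed by more than either SD. Per3 had 42.2 ± 3.8 TPM, Per1 26.9 ± 14.3 TPM and Per2, the lowest, 14.2 ± 4.1 TPM. At 25 mM the order was Nr1d2, Clock (86.5 ± 12.3 TPM), Arntl (78.4 ± 10.1), Nr1d1 (69.7 ± 25.0), Per3 (58.8 ± 16.5), Cry2 (48.5 ± 10.4), Dbp (46.0 ± 10.0), Cry1 (45.0 ± 7.35), Per1 (18.5 ± 7.39) and Per2 (10.1 ± 1.99). From Clock down to Cry1 each neighbour lay within the SD of the next, and Per1 and Per2 stood below the rest.

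Arntl encodes the obligate partner of the activating dimer and lies on chromosome 7 (GRCm38, 113207465 to 113314126, plus strand). Its summed replicates had 86.4, 83.0 and 77.7 CPM at 5 mM and 95.8, 89.9 and 104 CPM at 25 mM, and all 3 at 25 mM were above all 3 at 5 mM. The log2 fold change was 0.23 ± 0.15 (SE; 95% interval -0.11 to 0.57; edgeR FDR 0.327), with the lowest SE of the 10 genes. Of its counts, 95% to 97.6% fell on protein-coding transcripts. Clock, which encodes the partner of ARNTL, is on chromosome 5 (76209868 to 76304792, minus strand). It had 357, 234 and 261 CPM at 5 mM and 341, 358 and 277 CPM at 25 mM. These groups overlapped, since replicate 1 at 5 mM stood with the 25 mM replicates, and the log2 fold change was 0.19 ± 0.21 (95% interval -0.29 to 0.68; edgeR FDR 0.554).

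The 3 Period genes did not move as 1 group. Per1, an immediate target of the dimer that also responds to cAMP and glucocorticoids (chromosome 11, 69095217 to 69109960, plus strand), had 27.1, 84.2 and 61.3 CPM at 5 mM and 36.6, 22.9 and 50.3 CPM at 25 mM. The 5 mM replicates differed 3.11-fold among themselves, replicate 1 was as low as the 25 mM replicates, and the log2 fold change of -0.65 ± 0.42 (95% interval -1.62 to 0.31; edgeR FDR 0.327) did not exceed that spread. Per2, a core repressor (chromosome 1, 91415982 to 91459324, minus strand), had 32.9, 54.7 and 44.2 CPM at 5 mM and 30.2, 24.2 and 30.5 CPM at 25 mM. The groups were separate, with replicate 1 at 5 mM next to the 25 mM replicates. Its log2 fold change was -0.63 ± 0.23 (95% interval -1.15 to -0.12; edgeR unadjusted p 0.0221, FDR 0.118).

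Per3, the Period member that is dispensable for rhythms in mice (chromosome 4, 151003652 to 151044665, minus strand), lay on the other side of 0. It had 101, 111 and 103 CPM at 5 mM and 164, 120.1 and 116 CPM at 25 mM, which were separate, with the widest gap from 25 mM replicate 1. Its log2 fold change was 0.35 ± 0.18 (95% interval -0.07 to 0.76; edgeR FDR 0.239). The batches did not show the same difference for this gene. In batch 1 the 5 mM libraries had 79.4, 79.5 and 82.4 CPM and the 25 mM libraries 173, 165 and 141 CPM, and the log2 fold change was 0.98 (edgeR FDR 0.0132). In batch 2 the 5 mM libraries had 128, 151 and 122 CPM and the 25 mM libraries 161, 96.3 and 92.3 CPM. The log2 fold change there was -0.20 ± 0.25 (SE; edgeR FDR 0.72), within its SE of 0. Over all genes, 17.3% were called at an FDR under 0.05 in batch 1 alone and 0.0% in batch 2 alone. The term for a glucose effect that differed between batches was -1.24 ± 0.25 for Per3 (edgeR unadjusted p 0.00115, FDR 0.173). It was the only 1 of the 10 genes with an unadjusted p under 0.05 for that term, beside 16.3% of all genes, and the term did not pass the adjustment. The labels name these batches without saying what changed between them. The pooled value of Per3 thus joined a batch with a positive value and a batch whose value lay within its SE of 0.

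The cryptochromes are the strongest repressors of the dimer, and both had fitted values below 0 that did not pass the test. Cry1 (chromosome 10, 85131700 to 85185064, minus strand) had 94.1, 67.5 and 57.3 CPM at 5 mM and 46.7, 60.0 and 69.5 CPM at 25 mM, which overlapped, and its log2 fold change was -0.31 ± 0.24 (95% interval -0.85 to 0.23; edgeR FDR 0.394). The counts of its transcripts did not sum to its gene count: the ratio of gene to transcript counts ran from 0.818 to 1.3 over the replicates, against 0.937 to 1.09 for the other 9 genes. Cry2 (chromosome 2, 92403646 to 92434043, minus strand) had 91.5, 137 and 106 CPM at 5 mM and 87.7, 71.8 and 96.5 CPM at 25 mM. Only replicate 1 at 5 mM fell within the 25 mM range, and the log2 fold change was -0.38 ± 0.20 (95% interval -0.84 to 0.08; edgeR FDR 0.243). The share of Cry2 counts on protein-coding transcripts was 94.0% to 97.1% at 5 mM and 89.9% to 91.4% at 25 mM, and that of Clock was 97.1% to 97.8% and 95.2% to 96.7%. No test was made of these shares.

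The REV-ERB receptors, which share their target elements, differed most among the 10 genes. Nr1d1 (chromosome 11, 98767932 to 98775333, minus strand) had 92.1, 304 and 174 CPM at 5 mM and 89.4, 55.0 and 105 CPM at 25 mM. Replicates 2 and 3 at 5 mM exceeded every 25 mM replicate and replicate 1 did not, a 3.3-fold range within 5 mM. The log2 fold change was -1.19 ± 0.42 (95% interval -2.15 to -0.23; fold 0.438; edgeR unadjusted p 0.0208, FDR 0.116), which was the lowest of the 10 genes. Nr1d2 (chromosome 14, 18204054 to 18239127, minus strand) had 423, 252 and 244 CPM at 5 mM and 496, 478 and 339 CPM at 25 mM. Here replicate 1 at 5 mM was the high one and fell within the 25 mM range, and the log2 fold change of 0.52 ± 0.27 (95% interval -0.09 to 1.12; fold 1.43; edgeR FDR 0.233) was the highest of the 10 genes. Over the 12 libraries, the mean absolute difference of centred log2 CPM between Nr1d1 and Nr1d2 was 1.05, the largest of any pair of the 10 genes. The closest pairs were Per2 with Cry2 (0.143), Cry2 with Dbp (0.165), and Per2 with Dbp and Clock with Nr1d2 (both 0.205).

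**Figure D2:**
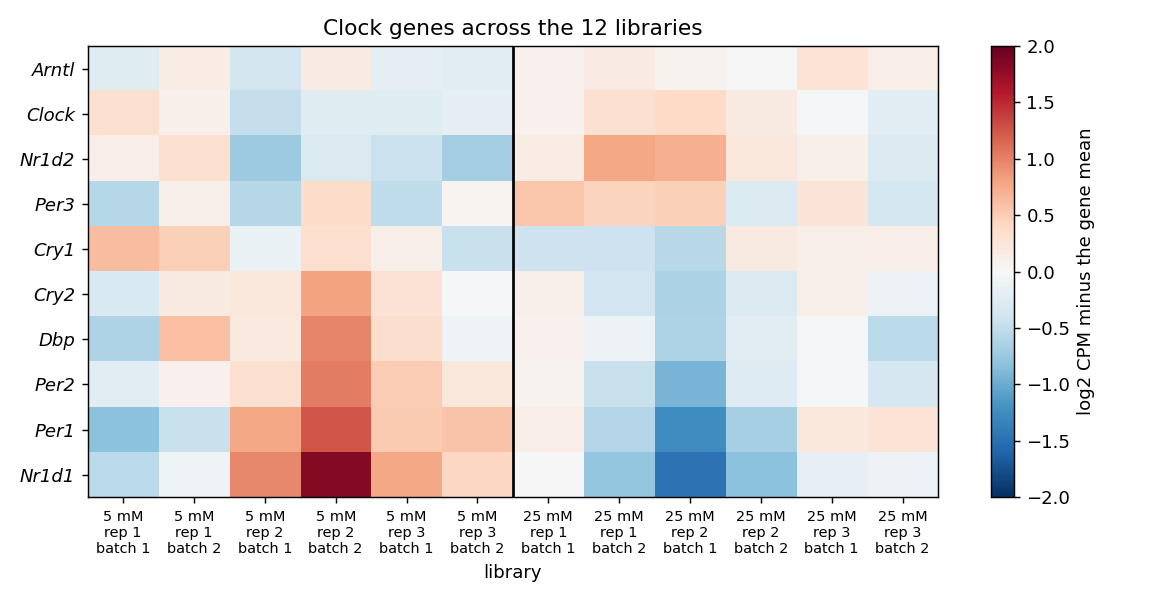
Log2 CPM of each clock gene minus its own mean (colour, from -2 to 2) in the 12 libraries, with 5 mM left and 25 mM right of the black line. Nr1d1, Per1, Per2, Dbp and Cry2 shared their highest library, 5 mM replicate 2 of batch 2, and these 5 genes and Cry1 shared their lowest among the 25 mM libraries, replicate 2 of batch 1.

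Dbp encodes a PAR bZIP activator that carries the rhythm of the loop to its outputs (chromosome 7, 45705088 to 45710203, plus strand). It had 31.8, 46.5 and 34.2 CPM at 5 mM and 30.5, 23.6 and 25.7 CPM at 25 mM, with separate groups and little gap between replicate 1 of each. The log2 fold change was -0.49 ± 0.21 (95% interval -0.98 to -0.01; edgeR unadjusted p 0.0463, FDR 0.167). Set against Arntl in the same replicate, the log2 ratio of Dbp to Arntl counts, which is not per length, was -1.44, -0.84 and -1.18 at 5 mM and -1.65, -1.93 and -2.02 at 25 mM. The means were -1.15 ± 0.30 and -1.87 ± 0.19 (SD, n = 3), and the difference was -0.71. Dbp has 56.7% GC and Arntl 48.7%, and with GC content and length corrected for, the log2 fold change of Dbp minus that of Arntl was -0.29 in place of -0.72. In single libraries the ratios of the groups overlapped, since 5 mM replicate 1 of batch 1 stood at -1.89.

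The transcript table split the Dbp counts by the class of transcript. Retained-intron transcripts carried 72.3%, 41.9% and 54.1% of Dbp counts at 5 mM and 63.5%, 79.4% and 62.2% at 25 mM. In CPM these transcripts overlapped between the groups, with 21.0, 20.7 and 18.1 at 5 mM and 20.3, 17.6 and 16.7 at 25 mM. Protein-coding Dbp transcripts had 8.04, 28.7 and 15.4 CPM at 5 mM and 11.7, 4.58 and 10.2 CPM at 25 mM, which overlapped through replicate 1 at 5 mM. With protein-coding transcripts alone, an alternative chosen after seeing these shares, the log2 fold change of Dbp was -0.80 (edgeR FDR 0.332). Per3 was the other gene with many counts outside coding transcripts: 27.8% to 33.5% lay on retained-intron transcripts and 33.1% to 47.9% on the coding one. Nr1d2 had 9.51% to 13.1% on retained-intron transcripts, and for the other 7 genes the coding share was at least 89.9%. The libraries were made from total RNA without selection for poly(A) tails.

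**Figure D3:**
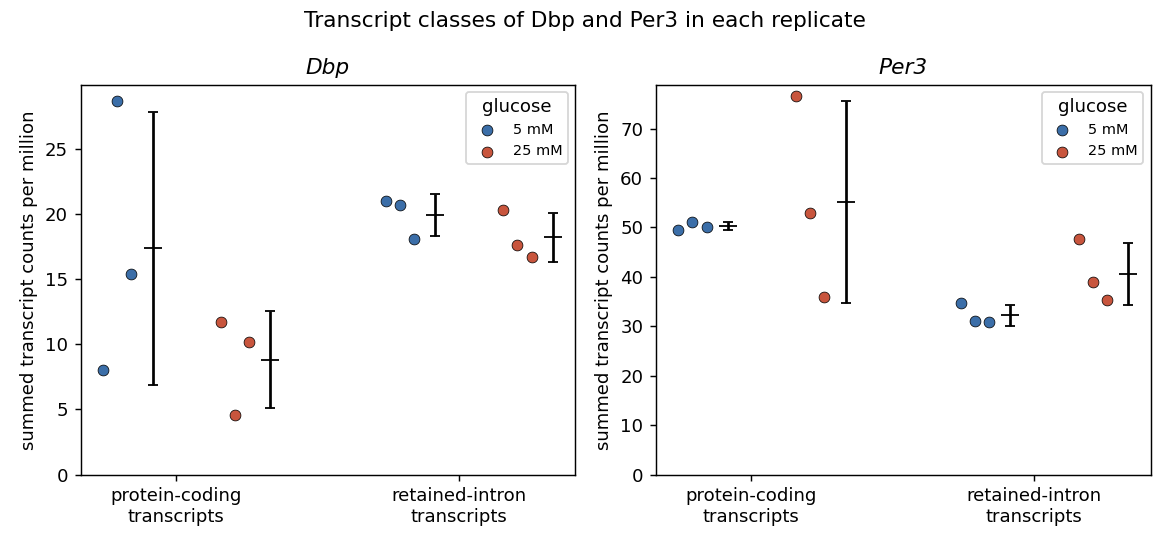
CPM summed over the protein-coding and the retained-intron transcripts of Dbp (left) and Per3 (right) in the 3 replicates of each concentration, with mean ± SD in black (y axes from 0). Coding Dbp spread from 4.58 to 28.7 CPM, and retained-intron Dbp from 16.7 to 21.0 CPM.

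Replicate 1 at 5 mM decided how many clock genes were called. Without it, 4 of the 10 genes passed an FDR of 0.05 in the same edgeR test, beside 26.6% of all genes: Nr1d1 at -1.53 (FDR 0.0165), Per2 at -0.81 (FDR 0.0221), Nr1d2 at 0.82 (FDR 0.0248) and Per1 at -0.99 (FDR 0.0479). The fit then rested on 2 replicates at 5 mM. Without 5 mM replicate 2, the highest for both genes, the log2 fold changes of Nr1d1 and Per1 were -0.69 and -0.28. In that fit 0 of the 10 genes were called, beside 0.0% of all genes, so this count says nothing particular to the clock genes. DESeq2 on all replicates called Nr1d1 alone (log2 fold change -1.20, FDR 0.0399), beside 16.6% of all genes. The limma-voom test called 0 of the 10 genes, beside 1.98% of all genes. The sign of the fitted value held in all 21 alternatives, which reuse the same replicates, for 8 of the 10 genes. The exceptions were Per3, at -0.20 in batch 2 alone, and Clock, at -0.12 once GC content and length were corrected for, with or without a replicate block. Some values that kept their sign lay within their SE of 0, so their sign carries little weight. Among them were Arntl at 0.06 ± 0.20 in batch 2 alone, and Per1 at -0.07 ± 0.21 and Dbp at -0.09 ± 0.19 with GC content and length corrected for.

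**Figure D4:**
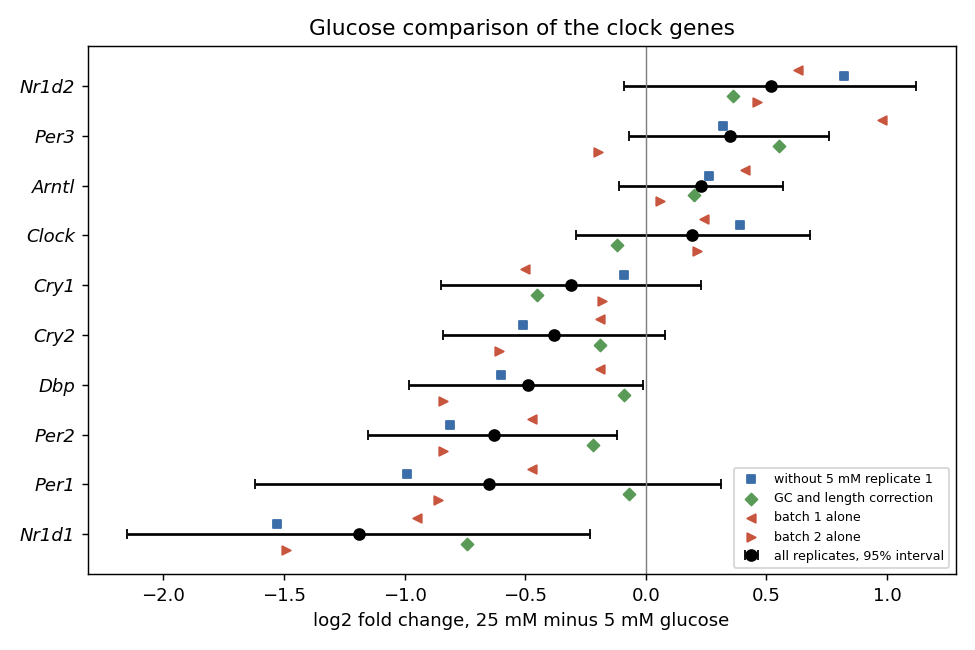
Log2 fold change (x axis, 25 mM minus 5 mM) of each clock gene (y axis, ordered by value) with its 95% interval in black, and the value without 5 mM replicate 1 (blue squares), with GC and length correction (green diamonds) and within each batch (red triangles). Intervals of Nr1d1, Per2 and Dbp left out 0, and Per3 was at 0.98 in batch 1 and -0.20 in batch 2.

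Base composition moved with these values. The 4 genes richest in GC, Per2, Nr1d1, Dbp and Per1, at 56.0% to 58.8% over their annotated transcripts, had the 4 lowest log2 fold changes of the 10 genes. Over all genes tested, the median log2 fold change fell from 0.27 in genes of 40% to 44% GC to -0.04 at 48% to 52% and -0.45 at 56% to 60%. A correction for GC content and length fits and removes that trend in each replicate, so the medians of those ranges near 0 (-0.02 to 0.01) follow from it. It also removes any glucose difference that follows GC content or length. After the correction, 13.5% of all genes and 0 of the 10 clock genes were called by edgeR at an FDR under 0.05. The log2 fold change of Nr1d1 was then -0.74 (FDR 0.0751) and that of Per3 0.55 (FDR 0.0525), the values with the lowest FDRs. Per1 was at -0.07 (FDR 0.84), Dbp at -0.09 (FDR 0.77) and Per2 at -0.22 (FDR 0.232), each closer to 0 than before the correction. Cry1 was at -0.45, Nr1d2 at 0.36, Arntl at 0.20, Cry2 at -0.19 and Clock at -0.12.

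**Figure D5:**
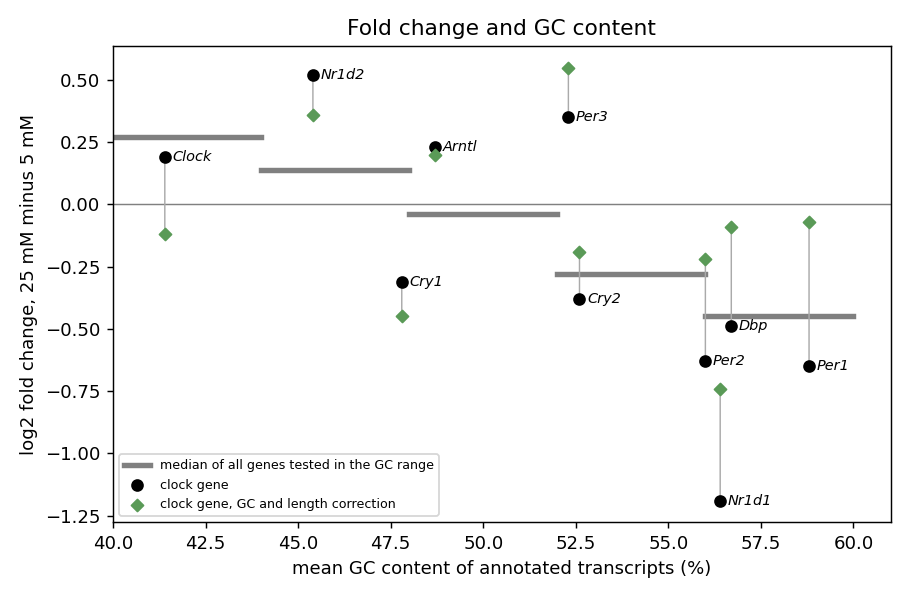
Log2 fold change (y axis, 25 mM minus 5 mM) against the mean GC content of the annotated transcripts (x axis, %) for the 10 clock genes before (black) and after (green) correction for GC content and length, with grey bars for the median of all genes tested in each GC range. Dbp, Per1 and Per2 moved from -0.49, -0.65 and -0.63 to -0.09, -0.07 and -0.22.

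Some clock genes share exon bases with a gene on the opposite strand, and how strand was used in counting is not given in the sources used here, so reads of such a pair might not be told apart. Nr1d1 shares 263 of its 3077 exon bases with Thra, a thyroid hormone receptor gene, which had a log2 fold change of -0.62 (edgeR FDR 0.126). Dbp shares 539 of 2993 with Sphk2, a sphingosine kinase gene (-1.32, FDR 0.146), which had 1.29 to 9.41 CPM. Cry2 shares 295 of 6320 with D930015M05Rik and Arntl shares 33 of 7523 with Gm45355, both noncoding.

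Beyond the 10 genes, 44 genes of 7 lists around the clock were looked at, and 42 were tested. A single gene, Ciart, was called at an FDR under 0.05, and 14 had an unadjusted p under 0.05, of which 4 were higher and 10 lower. These were 2.38% and 33.3% of the 42 genes, near the 1.98% and 28.7% of all genes. Ciart encodes CHRONO, a repressor that binds ARNTL, and it had 84.8, 114 and 86.3 CPM at 5 mM and 30.1, 36.5 and 51.4 CPM at 25 mM. It thus fell by 1.27 ± 0.24 on the log2 scale (edgeR FDR 0.0439), with every 25 mM replicate below every 5 mM replicate. Its value lay between -1.51 and -1.10 with any 1 replicate left out. It was not called without 5 mM replicate 2 or 3 or without 25 mM replicate 1 or 2 (FDRs 0.153, 0.159, 0.137 and 0.188), where 0 genes of the whole table were called, nor in batch 2 alone (FDR 0.398), with transcript counts (0.0537, or 0.0919 for coding ones) or when scaled by library totals (0.0519). Its list of feedback and PAR bZIP factors (6 genes, 2 above and 4 below 0, median -0.60) also held Bhlhe40, Nfil3 and Hlf, all lower with edgeR unadjusted p-values under 0.05. The 2 above 0 were Tef and Bhlhe41. Tef was highest in CPM (172 ± 10.4 and 193 ± 36.4) with a log2 fold change of 0.17 ± 0.18 (FDR 0.544). Bhlhe41 was at 125 ± 49.9 and 170.1 ± 6.8 CPM (0.44 ± 0.27, FDR 0.296). Bhlhe40 encodes DEC1, a repressor at E-boxes, and had 149, 146 and 130.5 CPM at 5 mM and 70.6, 86.6 and 104 CPM at 25 mM (log2 fold change -0.71 ± 0.18, FDR 0.0714). Bhlhe40, Bhlhe41, Nfil3, Hlf and Tef were named after their values were seen.

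Among the activator paralogs and ROR receptors (5 genes, 2 above and 3 below 0, median -0.22), Rorb, a receptor needed for rod development that shares its elements with the REV-ERBs, had 97.1, 66.0 and 69.1 CPM at 5 mM and 168, 151 and 120.1 CPM at 25 mM. Its log2 fold change of 0.92 ± 0.21 (edgeR FDR 0.0609) stood beside higher rod markers at 25 mM, whose part in it was not tested. Rora, the most abundant of the list, was at 199 ± 59.4 and 278 ± 68.1 CPM (0.48 ± 0.26, FDR 0.257). Of the 10 genes that modify clock proteins (median -0.15), the kinase gene Csnk1e had 28, 79.9 and 57.8 CPM at 5 mM and 31.1, 24.4 and 34.0 CPM at 25 mM (-0.89 ± 0.35, FDR 0.144), with replicate 1 at 5 mM again low. Nono, the most abundant, was at 282 ± 11.9 and 241 ± 16.8 CPM (-0.23 ± 0.15, FDR 0.338). The 6 clock-controlled genes had a median of -0.15. Klf10, a zinc finger repressor gene, was at 83.0 ± 8.37 and 48.1 ± 15.9 CPM (-0.79 ± 0.24, FDR 0.0906), and Noct, a circadian deadenylase gene, was the most abundant (-0.24 ± 0.19, FDR 0.432).

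Of the 5 rhythmic retinal genes, 3 were tested, with 2 above and 1 below 0 and a median of 0.73. The one below 0 was Opn4, the gene of the light sensor melanopsin, at 0.589 ± 0.274 and 0.405 ± 0.0987 CPM (-0.52 ± 0.44, edgeR FDR 0.441). Drd4, the photoreceptor dopamine receptor, had 2.22, 4.39 and 3.60 CPM at 5 mM and 9.34, 5.78 and 8.59 CPM at 25 mM (1.22 ± 0.34, edgeR FDR 0.0763). Adcy1, an adenylyl cyclase gene with a known rhythm in the retina, had 60.4, 83.0 and 72.4 CPM at 5 mM and 152, 105 and 101 CPM at 25 mM (0.73 ± 0.21, FDR 0.0838). Both groups were separate for both genes, the rod markers were higher at 25 mM too, and their part in these values was not tested. The cAMP and activity inducible genes (7 genes, median -0.25) included the immediate early genes Egr1, the most abundant (-0.25 ± 0.21, FDR 0.428), and Junb (-1.30 ± 0.47, FDR 0.124). The 6 glucocorticoid responsive genes were all below 0 (median -0.33, beside -0.01 over all genes tested), and 0 of them were called. Tsc22d3 (-0.07 ± 0.19) and Sgk1 (-0.06 ± 0.21) lay within their SE of 0. Pdk4, which encodes a kinase that holds pyruvate out of the mitochondrial cycle, had 12.2, 12.4 and 13.9 CPM at 5 mM. At 25 mM it had 1.79, 3.53 and 5.43 CPM (-1.84 ± 0.39, FDR 0.054). Cdkn1a, the cell cycle inhibitor gene and most abundant of the list, with means of 157 ± 44.3 and 133 ± 61.7 CPM, had -0.24 ± 0.36 (FDR 0.67).

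The genes whose pattern over the 12 libraries was most like that of a clock gene were sought among 12502 genes with a mean of at least 5 CPM, by the mean absolute difference of centred log2 CPM. Those nearest to Dbp were Chst10 (0.121), Mapk8ip2 (0.14) and Cend1 (0.16), with log2 fold changes of -0.39, -0.28 and -0.43. Those nearest to Arntl were Gpn3 (0.0773), ENSMUSG00000118663 (0.0825) and Ensa (0.0853), with log2 fold changes of 0.17, 0.31 and 0.12. None of the 10 clock genes was among these 6.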

How the data were processed

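Total RNA of retinal explants was made into 12 stranded libraries by the authors with a low-input total RNA kit. The deposited gene and transcript tables hold expected counts, estimated counts that need not be whole (100% of the nonzero gene values and 86.7% of the nonzero transcript values were not whole), on GRCm38 per the labels, and the counting tool is not given in the sources used here. Symbols, lengths and GC content came from GENCODE M21 (90.7% of gene identifiers and 92.0% of transcripts matched) and promoter windows from RefSeq. The 2 technical replicates of each biological replicate were summed and rounded. The design had named counts, and these estimated counts were tested in the same way. The test was edgeR 4.0.16 (quasi-likelihood as in edgeR 3, TMM factors, default filter by expression) in R 4.3.3, with Benjamini-Hochberg adjustment over 21061 genes. CPM used the TMM factors, log2 CPM a prior count of 2, and TPM the transcript counts over annotated lengths. Alternatives were DESeq2 1.42.0, limma-voom (limma 3.58.1), other filters and scalings, a GC content and length correction, a block for replicate number, single batches, transcript counts, and each replicate left out. The scripts were tested on simulated data. Clock genes and lists were chosen with earlier results of these data known. Named beyond the 10 genes were each list gene called at an FDR under 0.05, otherwise the most abundant and the most changed gene of each list, and the 3 genes nearest to Dbp and to Arntl. Bhlhe40, Bhlhe41, Nfil3, Hlf, Tef, Opn4, Sgk1 and Tsc22d3 fall outside this rule and were named after their values were seen. Lowest library depth was 14815285 counts. Floors and intervals of single samples were not needed, as no clock gene was near 0.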

Additional observations from a re-analysis of the deposited data

How the results depend on the processing

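Over 21 alternatives for each of the 10 clock genes, the number called by its test at an FDR under 0.05 was 0 in the main test, 1 with DESeq2 (Nr1d1, -1.20), with no low count filter (Nr1d1, -1.21, FDR 0.0487), with the 12 libraries as separate samples and a batch term (Nr1d1, -1.21, FDR 0.0462, where technical replicates count as independent and p-values are too small), in batch 1 alone (Per3, 0.98) and with a replicate block plus GC and length correction (Per3, 0.53, FDR 0.0364). Leaving out 1 replicate gave 0 to 4, the 4 without 5 mM replicate 1. Over the replicates left out, Per1 ranged from -0.99 to -0.28, Per2 from -0.81 to -0.46, Nr1d1 from -1.53 to -0.69, Nr1d2 from 0.36 to 0.82, Clock from 0.06 (without 5 mM replicate 2) to 0.39 (without 5 mM replicate 1), Cry1 from -0.47 to -0.09 (without 5 mM replicate 1), Cry2 from -0.51 to -0.22 and Dbp from -0.60 to -0.32 (both highest without 5 mM replicate 2), and Per3 from 0.18 (without 25 mM replicate 1) to 0.43. Clock turned to -0.12 with GC and length correction, with and without the block, and Per3 to -0.20 in batch 2 alone. The causes were not tested.

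The numbers of genes called over all genes, 417 (FDR under 0.05) and 0 (FDR under 0.01 with a fold over 2), moved more. They were 3489 and 1387 with DESeq2, 1979 and 275 with no low count filter, 2918 and 109 with the 12 libraries, 3279 and 367 in batch 1 alone, and 2852 and 111 with GC and length correction. Batch 2 alone gave 0 and protein-coding transcripts alone 54 at the first threshold. Leaving out 1 replicate gave 0 to 5845 at the first and 0 to 108 at the second, the highest without 5 mM replicate 1 in both.

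Whether samples of the same replicate number were paired could not be told. Deviations of same-numbered samples from their group means correlated at -0.0138, -0.449 and 0.285, and not every sample correlated best with its own number. With 3 replicates the deviations of a group sum to 0, so these correlations depend on each other and cannot decide pairing. With the replicate block, the first threshold called 990 genes and 0 clock genes, and with the block and GC and length correction 3192, or 607 at the stricter threshold. List genes called were 3 with the block and 9 with the block and correction.

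Of the 42 list genes tested, the 1 called became 9 with DESeq2, 2 with limma-voom and with the quasi-likelihood method of edgeR 4, 5 with no low count filter, 7 with the 12 libraries, in batch 1 alone and with GC and length correction, 0 in batch 2 alone, with summed transcript counts and with protein-coding transcripts alone, and 0 to 14 on leaving out 1 replicate. These counts stand beside the shares of all genes called: 21.4% of list genes and 16.6% of all with DESeq2, 16.7% and 13.5% with GC and length correction, 16.7% and 17.3% in batch 1, and 32.6% and 26.6% without 5 mM replicate 1. The median log2 fold change of the 10 clock genes was -0.11 with GC and length correction and -0.10 with the block as well. The same settings gave 0.02 and 0.08 for the activator paralogs and ROR receptors, which had 0.53 in batch 1 alone. Medians were 1.29 in batch 1 and 0.35 in batch 2 for the rhythmic retinal genes, and -0.91 and 0 for the glucocorticoid responsive genes. They were -0.01 in batch 2 for the modifiers and -0.42 with protein-coding transcripts for the feedback and PAR bZIP factors. Leaving out 1 replicate gave -0.55 to -0.23 for the glucocorticoid responsive genes. The other 423 values were counted as unchanged. Fold changes, ratios and medians among them kept their direction and side of the threshold or stayed within the replicate spread. Numbers of genes called at an FDR under 0.05 over all genes that were counted as unchanged from 417 still ran from 334 to 595. The lowest came with summed transcript counts and the highest with the quasi-likelihood method of edgeR 4. The main fit had 3 replicates per concentration and a common biological coefficient of variation of 0.297 over the genes tested. The lowest clock gene count in a summed replicate was 836, and what limited these tests was not tested.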
